A study of Mus musculus with 6 samples.

Results

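The insulin-like growth factor (IGF) family measured here comprised 10 genes, taken by name from a fixed list and matched to the table by their Ensembl identifiers: the ligands Igf1 and Igf2, the receptors Igf1r and Igf2r, and the binding proteins Igfbp2, Igfbp3, Igfbp4, Igfbp5, Igfbp6 and Igfbp7. They were 10 of the 54532 genes in the table, and all 10 passed the filter on low values that left 13794 genes to test. The samples were primary cardiomyocyte cultures from the hearts of 1- to 3-day-old mouse pups, and all cultures came from mice carrying an engineered Rit1 locus (Rit1 LoxP-M90I) that expresses the pathogenic variant M90I after Cre recombination. In the control group, AdGFP (Rit1 +/+, n = 3), the cells received an adenovirus encoding GFP. In the other group, AdCre (Rit1 M90I/+, n = 3), they received an adenovirus encoding GFP-Cre. Adenovirus was added on day 3 after isolation and RNA was taken on day 6 after delivery. No group received Cre without the inducible locus, so the variant and the recombinase cannot be told apart. Roughly 1 heart went into each well, and the culture medium contained serum and an insulin supplement.

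IGF1 and IGF2 are secreted growth factors that act through the tyrosine kinase receptor IGF1R, which signals to the PI3K-AKT-mTOR and RAS-MAPK pathways and promotes growth and survival of heart muscle cells. IGF2R carries no kinase and takes IGF2 to lysosomes, where it is degraded, besides sorting lysosomal enzymes. Secreted binding proteins hold the ligands outside the cell and either limit or prolong their action, and IGFBP7 differs from the rest in its low affinity for IGFs.

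None of the 10 genes differed between AdCre and AdGFP at an adjusted p under 0.05, and for every gene the 3 AdCre values overlapped the 3 AdGFP values, whereas the groups did not overlap for 15.4% of all genes tested. The largest differences were in Igf1, 1.31-fold higher in mean FPKM in AdCre and higher in all 3 pairs of samples with the same replicate number, and in Igfbp6, with means of 29.7 ± 23.4 FPKM for AdGFP and 15.9 ± 6.22 for AdCre (SD, n = 3 each). The log2 difference of Igfbp6, -0.66, depended on single controls and was -0.05 without AdGFP 3 and -1.20 without AdGFP 1. The levels of several binding proteins followed the replicate number far more than the treatment. Values are in FPKM, read counts divided by transcript length and a total per sample, so levels can be set against each other per length. That total was not the reads recovered from the values, which were 1.07, 1.03 and 1.03 of it in AdGFP. In AdCre they were 1.01, 1.006 and 0.975 of it, so the values hold a factor per sample, below called the authors' scaling factors. Differences are log2 fold changes of FPKM + 0.1 (AdCre over AdGFP) from limma, with p-values adjusted by the Benjamini-Hochberg method over all 13794 genes. In this fit the median difference over all genes tested was -0.002, and it was 0.058 without these factors and 0.087 in TPM. The same fit called 1 gene of 13794 (0.00725%), and 0 of the 10 members passed even at an unadjusted p under 0.05, against 10.2% of all genes tested. Because samples with the same number deviated together, a second fit took the replicate number as a block. This fit called 848 genes (6.15%) and again 0 of the 10 members, while 2 members, Igf1 and Igfbp3, had an unadjusted p under 0.05 against 24.7% of all genes. Over the 9 blocked fits run, genes called ran from 0 to 1741, Igf1 was called in 2 and Igfbp6 in 1.

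Cardiomyocyte markers were present in every sample, with a summed level of 14 markers between 5456 and 8929 FPKM in AdGFP and between 2906 and 4852 FPKM in AdCre, and none at 0. All 14 were lower in AdCre by their fold change, of which 0 passed without the block and 9 passed with it. Markers of other heart cells were measured as well. The summed level of 12 fibroblast markers ran from 2778 to 4929 FPKM in AdGFP and from 2496 to 3602 FPKM in AdCre, that of 12 endothelial markers from 104 to 157 and from 148 to 217 FPKM, and that of 9 macrophage markers from 50.5 to 276 and from 89.3 to 347 FPKM, none at 0. Mural markers (10 genes) summed to 865 to 1340 FPKM and epicardial or mesothelial markers (8 genes) to 132 to 296 FPKM over the 6 samples, while 6 red blood cell genes summed to at most 2.27 FPKM, with Hba-a2 and Hbb-bt at 0. Single genes held a large part of several sums. Over the 6 samples Actc1 (cardiomyocyte) ran from 1186 to 4943 FPKM and Col1a1 (fibroblast) from 1389 to 2450 FPKM. Acta2 (mural) ran from 665 to 1122 FPKM and Lyz2 (macrophage) from 31.5 to 240 FPKM. In bulk RNA, fewer cells of a type and less RNA per cell cannot be told apart.

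Igf2 needs its position before its values. The gene (ENSMUSG00000048583) lies at chr7:142650766-142666816 on the minus strand (GRCm38), upstream of the noncoding H19 in the same imprinted region, with a gap of 72.62 kb between them. The predicted gene Gm49394 lies over it on the same strand and holds 3596 of the 5723 exon bases of Igf2 (62.8%). The longest annotated coding sequence of Igf2 (576 bases with the stop codon, chr7:142653816-142658390, GENCODE M21) has 549 bases in the shared exons and 27 outside them. Its first 120 bases are shown, since they hold the point where the shared stretch begins (chr7:142655724-142658390, minus strand, spliced). Capitals mark the bases that also belong to Gm49394, and lower case the 27 that do not.

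Igf2: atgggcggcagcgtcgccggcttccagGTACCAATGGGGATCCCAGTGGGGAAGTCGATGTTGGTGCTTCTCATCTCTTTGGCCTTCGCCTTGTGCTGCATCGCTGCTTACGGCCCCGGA

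Reads from the capitals and from the rest of the shared exons belong to both genes by position, and a counter set to leave such reads out, as HTSeq does by default, would not assign them. Gm49394 was listed at 0 in all 6 samples. Across the table, of the 133 protein-coding genes whose exon bases were all shared with another gene on the same strand, 106 (79.7%) were listed at 0 in every sample, compared with 3605 of 15460 (23.3%) of those with no shared exon base. Of 56 with at least 90% of their exon bases opposite those of another gene and none shared on the same strand, 48 (85.7%) were listed at 0. The counting mode is not given in the sources used here, so the FPKM of Igf2 is uncertain as a level and is not set against those of the other genes below, except by position in the list and in a ratio compared between the groups.

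Igf2, the growth factor of fetal growth, was measured at 1.82, 2.89 and 3.68 FPKM in AdGFP 1, 2 and 3 and at 2.03, 2.46 and 2.62 FPKM in AdCre 1, 2 and 3. Replicate 1 was the lowest of its group in both arms, and the AdCre values lay inside the AdGFP range. The difference was -0.18 ± 0.26 on the log2 scale (SE, 95% interval -0.81 to 0.44, limma adjusted p = 0.889), and it turned to 0.03 without AdGFP 3. These values rested on 258 to 519 reads a sample.

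Igf1 (ENSMUSG00000020053, chr10:87858265-87937042, plus strand), the ligand that drives postnatal growth, was at 7.59, 5.996 and 8.23 FPKM in AdGFP and at 10.5, 7.29 and 10.7 FPKM in AdCre. Replicate 2 was the lowest of each group, and AdCre 2 lay among the AdGFP values, so the groups overlapped. Within the replicate numbers Igf1 was 1.38-, 1.22- and 1.30-fold higher in AdCre. The log2 difference was 0.37, with an SE of 0.20 and an adjusted p of 0.599 in limma without the block, and an SE of 0.086 and an adjusted p of 0.0652 with it. With the block and values rescaled to TPM it was called (0.46, limma adjusted p = 0.0486), as it was with the block and voom on the reads recovered from the FPKM values (0.44, adjusted p = 0.0114). Of the 10 members, Igf1 and Igfbp2 were higher and Igfbp3 was lower in all 3 pairs, so 3 of 10 kept one direction, against 48.4% of all genes tested (23.9% higher and 24.5% lower). The direction in Igf1 was the same in all alternatives run, from 0.24 (without AdGFP 2) to 0.55. Without the block 0 of 12 endothelial and 0 of 9 macrophage markers passed, and with it 4 and 2 did, all higher in AdCre, with summed levels that overlapped between the groups as given above. Their part in the Igf1 values was not tested.

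**Figure D1:**
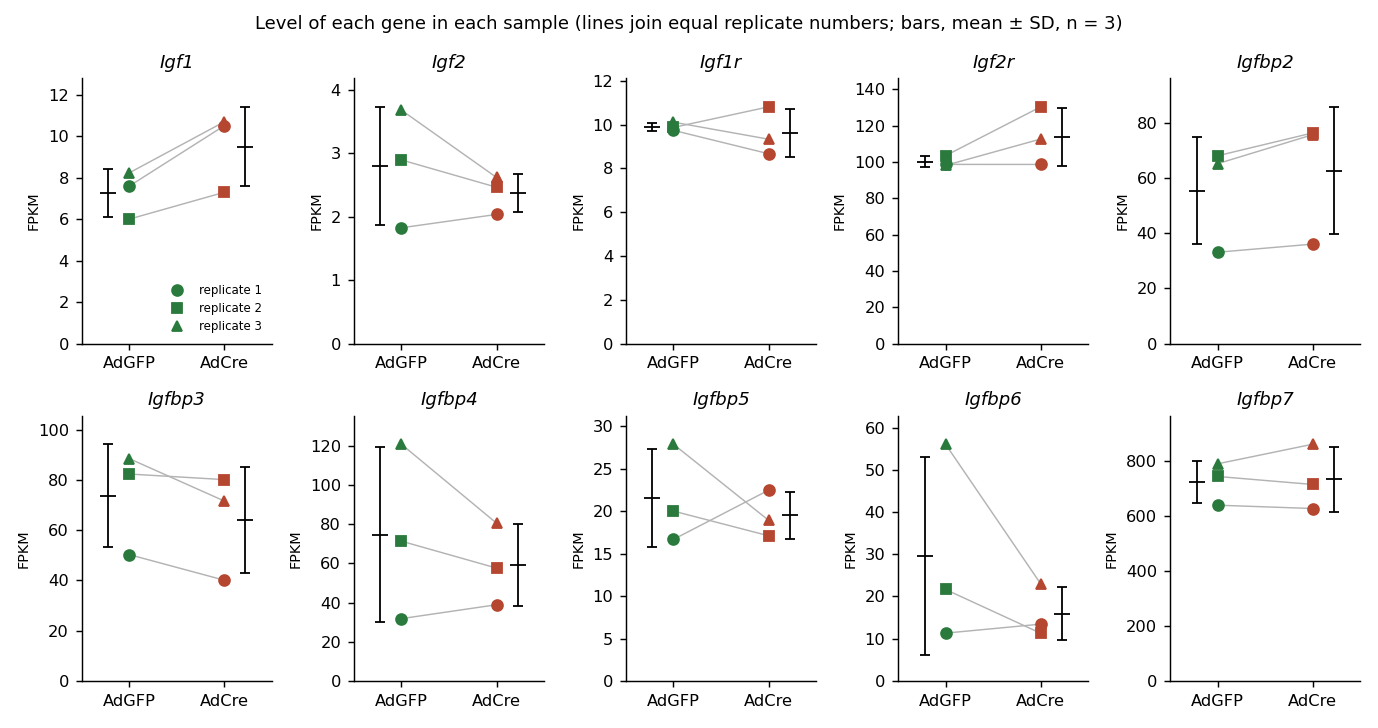
FPKM of the 10 genes in each sample (y axes, linear from 0, each gene on its own scale), AdGFP in green and AdCre in red, with grey lines joining equal replicate numbers and black bars for the mean ± SD of 3 samples. All 3 lines of Igf1 and of Igfbp2 rise, all 3 of Igfbp3 fall, and in every panel the 2 groups overlap.

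Of the receptors, Igf1r (ENSMUSG00000005533, chr7:67952827-68233668, plus strand) encodes the signalling receptor for both ligands. Its level was 9.74, 9.87 and 10.1 FPKM in AdGFP and 8.67, 10.8 and 9.33 FPKM in AdCre. The controls had an SD of only 0.189 FPKM, and the AdCre values spread on both sides of them. The log2 difference was -0.05 ± 0.12 (SE, 95% interval -0.34 to 0.24, limma adjusted p = 0.944), with a sign that changed between alternatives, TPM among them.

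Igf2r (ENSMUSG00000023830, chr17:12682406-12769664, minus strand), which encodes the clearance receptor for IGF2, was at 98.6, 103.4 and 98.1 FPKM in AdGFP and at 98.6, 130.3 and 112.6 FPKM in AdCre. AdCre 1 lay among the controls, and AdCre 2 and 3 lay above all of them. The difference was 0.18 ± 0.14 on the log2 scale (SE, 95% interval -0.15 to 0.51, limma adjusted p = 0.754), and 0.08 without AdCre 2. The ratio of Igf2r to Igf1r FPKM, chosen after the values were seen, was 10.1, 10.5 and 9.70 in AdGFP and 11.4, 12.1 and 12.1 in AdCre. These ratios did not overlap between the groups, with a log2 difference of 0.23. A two-sided exact permutation test gave p = 0.1, which is its lower limit for groups of 3. Any ratio without overlap gives this p, so the test adds nothing to the ratios themselves.

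The 6 binding proteins covered a wide range of levels. Igfbp7 (ENSMUSG00000036256, chr5:77349240-77408041, minus strand), a matrix-associated protein and a known product of vessel-lining cells, stood far above the others and above 99.8% of the genes tested, at 640, 745 and 791 FPKM in AdGFP and at 628, 716 and 862 FPKM in AdCre. The samples of a number were close to each other in both groups and the difference was 0.01 ± 0.19 on the log2 scale (SE, 95% interval -0.44 to 0.46, limma adjusted p = 0.994), with a sign that turned without AdGFP 1 or AdCre 3. Of its exon bases, 7.03% lie opposite those of Polr2b, and the strand setting of the counting is not given in the sources used here.

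Igfbp2 and Igfbp5 are neighbours on chromosome 1, on opposite strands with a gap of 5.46 kb. Igfbp2 (ENSMUSG00000039323, chr1:72824503-72852474), a binding protein with a preference for IGF2, was at 33.1, 68.0 and 65.1 FPKM in AdGFP and at 36.0, 76.3 and 75.7 FPKM in AdCre. Both replicate 1 samples were at about 0.5 of the level of the others, and within each number AdCre was slightly higher. The log2 difference was 0.17, with an SE of 0.38 (limma adjusted p = 0.941) without the block and 0.070 (adjusted p = 0.210) with it. Leaving out 1 sample moved it from -0.17 to 0.53, below 0 without AdGFP 1, AdCre 2 or AdCre 3.

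Igfbp5 (ENSMUSG00000026185, chr1:72857932-72874884), the most conserved of the binding proteins and one that attaches to matrix, was at 16.7, 20.0 and 27.9 FPKM in AdGFP and at 22.5, 17.1 and 18.9 FPKM in AdCre. Unlike its neighbour it did not follow the replicate number: sample 1 was the lowest control and the highest AdCre culture. The difference was -0.12 ± 0.21 (log2, SE, 95% interval -0.61 to 0.38, limma adjusted p = 0.914), and its sign changed without AdGFP 3.

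Igfbp3 (ENSMUSG00000020427, chr11:7206086-7213923, minus strand), the main carrier of IGFs in blood, was at 50.3, 82.4 and 88.5 FPKM in AdGFP and at 40.1, 80.1 and 71.6 FPKM in AdCre. Replicate 1 was again the lowest of each group, and AdCre was lower in all 3 pairs. The log2 difference was -0.22, with an SE of 0.32 (limma adjusted p = 0.889) without the block and 0.087 (adjusted p = 0.186) with it, and it turned to 0.08 without AdCre 1.

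Igfbp4 (ENSMUSG00000017493, chr11:99041244-99054392, plus strand), an inhibitory binding protein that is cut by the protease PAPP-A, was at 31.8, 71.3 and 120.8 FPKM in AdGFP and at 38.9, 57.6 and 80.5 FPKM in AdCre. The controls spanned 3.80-fold, with the same order of replicate numbers in both groups. The difference was -0.20 ± 0.49 on the log2 scale (SE, 95% interval -1.36 to 0.96, limma adjusted p = 0.945). It ran from -0.72 to 0.25 when 1 sample was left out, above 0 without AdGFP 3 or AdCre 1.

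Igfbp6 (ENSMUSG00000023046, chr15:102144362-102149511, plus strand), which prefers IGF2, was at 11.3, 21.7 and 56.1 FPKM in AdGFP and at 13.4, 11.3 and 23.0 FPKM in AdCre. AdGFP 3 stood apart, and the controls spanned 4.95-fold. The log2 difference, -0.05 without AdGFP 3 and -1.20 without AdGFP 1, was -0.66 ± 0.56 over all samples (SE, 95% interval -1.99 to 0.68, limma adjusted p = 0.779), and by number it was 0.25, -0.94 and -1.28. With the block and without replicate 1 it was -1.11 (limma adjusted p = 0.00571), so that replicate 1 decided whether Igfbp6 was called in the blocked fit. The epicardial and mesothelial marker Msln was at 14.4, 27.6 and 86.0 FPKM in AdGFP and at 13.3, 9.89 and 27.3 FPKM in AdCre, and Upk3b at 3.92, 11.3 and 37.9 FPKM and at 4.35, 4.08 and 23.4 FPKM. Both were named after their values were seen. The most abundant marker of the list, Krt19, ran the other way, at 133, 33.8 and 17.3 FPKM in AdGFP and at 74.2, 64.5 and 34.0 FPKM in AdCre. AdGFP 3 was the highest of the 6 samples for 6 of the 8 markers, as it was for Igfbp6, but not for Krt19 and Aldh1a2. The list summed to 148 to 296 FPKM in AdGFP and 132 to 185 FPKM in AdCre, with no marker at 0, and with the block 3 of the 8 passed, Tbx18 and Lrrn4 lower and Aldh1a2 higher. Their part in the Igfbp6 values was not tested.

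**Figure D2:**
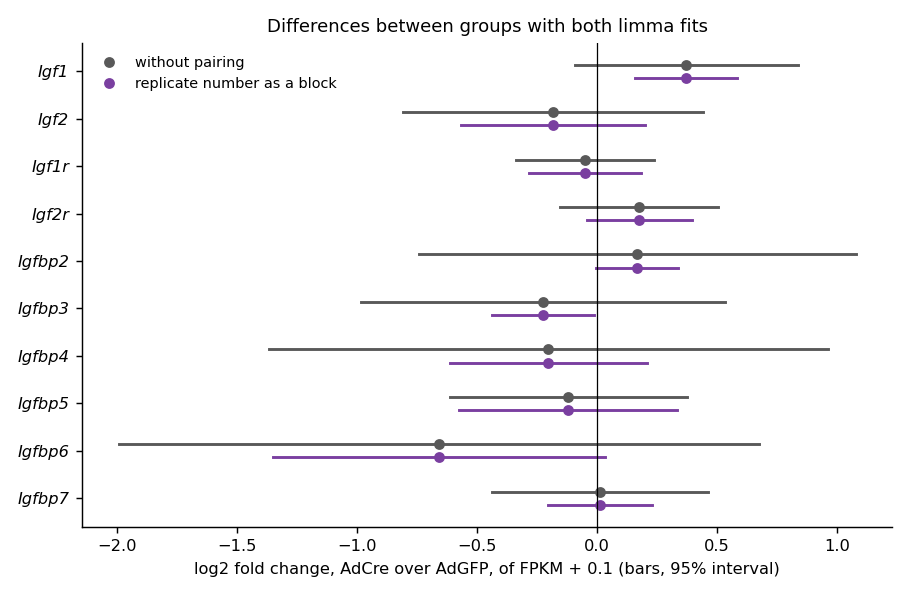
Log2 fold change of FPKM + 0.1, AdCre over AdGFP (x axis), for each of the 10 genes, with bars for the 95% interval in limma without pairing (grey) and with the replicate number as a block (purple). In proportion, the intervals of Igfbp2, Igfbp3 and Igfbp4 shrink most with the block, and only those of Igf1 and Igfbp3 then lie on one side of 0, before adjustment over genes.

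By mean FPKM in AdGFP the order was Igfbp7, Igf2r, Igfbp4, Igfbp3, Igfbp2, Igfbp6, Igfbp5, Igf1r, Igf1 and Igf2. Over the 6 samples, neighbours in this order had separate ranges at only 3 steps, between Igfbp7 and Igf2r, between Igfbp5 and Igf1r, and between Igf1 and Igf2, the last with the limit on Igf2 given above. Igfbp4, Igfbp3, Igfbp2 and Igfbp6 had ranges that overlapped each other, although Igfbp2 was above Igfbp6 in 6 of 6 samples, while Igfbp4 was above Igfbp3 in 2 of 6. Igfbp5 overlapped Igfbp6 and lay wholly below Igfbp4, Igfbp3 and Igfbp2.

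The total sum of squares of each gene over the 6 samples, on the scale of log2(FPKM + 0.1), was divided into a share for the replicate number, a share for AdCre against AdGFP and a remainder. For Igfbp2 the number held 97.0% and the group 2.84%, and 2.38% of all genes tested had a share for the number at least as large. Igfbp7, Igfbp3 and Igfbp4 had shares for the number of 93.7%, 90.3% and 89.5%. Igf1 divided otherwise, with 57.3% for the number and 41.0% for the group, and Igfbp5 left 66.2% in the remainder. The median share of the number was 71.0% over the 10 genes and 59.2% over all genes tested, and the median share of the group was 6.92% and 16.0%. H19, the noncoding neighbour of Igf2, had a share for the number of 97.8%, at 104, 234 and 323 FPKM in AdGFP and 93.9, 206 and 272 FPKM in AdCre. The summed fibroblast markers were 2778, 3742 and 4929 FPKM in AdGFP and 2496, 3275 and 3602 FPKM in AdCre, and the summed macrophage markers 50.5, 210 and 276 FPKM and 89.3, 286 and 347 FPKM. Both were lowest in replicate 1 of each group, as were Igf2, Igfbp2, Igfbp3, Igfbp4 and Igfbp7. So were the summed endothelial markers, at 104, 123 and 157 FPKM in AdGFP and 148, 166 and 217 FPKM in AdCre. The summed mural markers were highest there, at 1340, 865 and 1040 FPKM and 1232, 1025 and 1167 FPKM. Not every fibroblast marker was lowest there, as Postn was highest in AdGFP 1 and Thy1 in AdCre 1. The part of these cell types in the values was not tested.

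**Figure D3:**
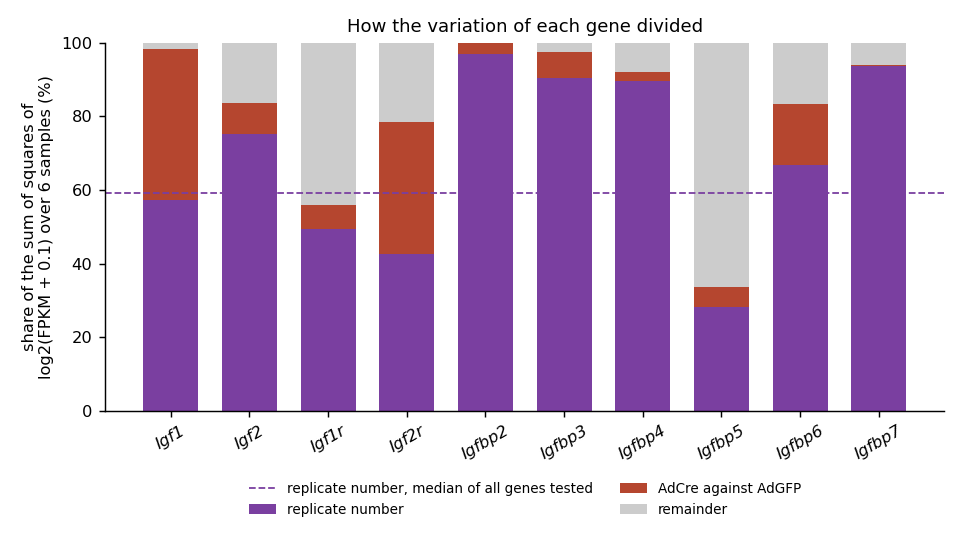
Share of each gene's sum of squares over the 6 samples, in percent (y axis), held by the replicate number (purple), by AdCre against AdGFP (red) and by the remainder (grey), with the dashed line at the median for the number over all genes tested (59.2%). Igfbp2, Igfbp3, Igfbp4 and Igfbp7 lie far above the line in purple, and Igf1 has the largest red part (41.0%).

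The 6 binding proteins together summed to 783, 1008 and 1149 FPKM in AdGFP and to 779, 958 and 1132 FPKM in AdCre. The sums of equal numbers were nearly the same, and the difference of -0.03 on the log2 scale was small beside the spread (two-sided exact permutation p = 0.7, ignoring the pairs), though the sum was lower in AdCre in all 3 pairs. In TPM it was 0.05, higher in AdCre in all 3 pairs. Igfbp7 made up 74.8% ± 6.51 of the sum in AdGFP and 77.2% ± 3.08 in AdCre (SD, n = 3 each). The share of Igfbp6 was 2.82% ± 1.81 in AdGFP and 1.64% ± 0.432 in AdCre, and that of Igfbp2 was 5.55% ± 1.27 and 6.42% ± 1.69, higher in AdCre by 0.40, 1.22 and 1.02 percentage points within the numbers. Over the 6 shares the exact permutation p-values, which ignore the pairs, ran from 0.4 to 1.0, and from 0.84 to 1.0 after Benjamini-Hochberg adjustment.

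**Figure D4:**
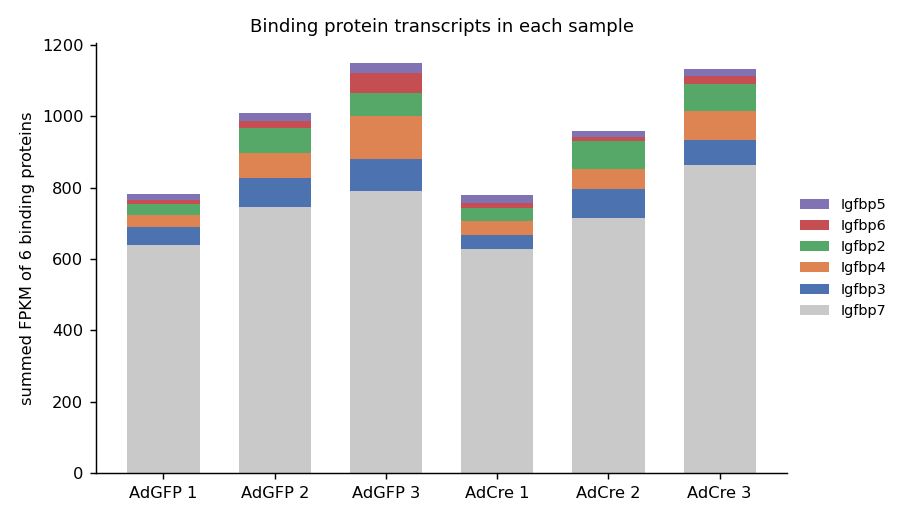
Summed FPKM of the 6 binding proteins in each sample (y axis from 0), stacked by gene. The column heights follow the replicate number, from 783 to 1149 FPKM in AdGFP and from 779 to 1132 FPKM in AdCre, and Igfbp7 forms most of each column.

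The ratio of Igf2 to Igf1 FPKM was 0.240, 0.483 and 0.447 in AdGFP and 0.194, 0.338 and 0.245 in AdCre. It was lower in AdCre within each number but overlapped between the groups, with a log2 difference of -0.57 (two-sided exact permutation p = 0.3).

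Beyond the family, 73 other genes of the IGF and insulin pathway were in the table and 65 were tested. Without the block 0 were called (limma, 10 at an unadjusted p under 0.05). With the block 6 of 65 were called, all lower in AdCre, against 3.51% of all genes called lower, 2.64% called higher and 6.15% called in either direction. The balance of that background turned with the scaling, from 364 genes higher and 484 lower to 538 and 337 in TPM. It was 1002 and 739 with voom, and 386 and 318 without the authors' scaling factors. The 6 genes were lower in AdCre in every alternative run. They were picked by their calls in these same samples, so the kept direction adds no separate evidence. The groups did not overlap for 9 of the 65, 8 with AdCre below and 1 with AdCre above, against 8.02% and 7.36% of all genes tested. The 6 were Grb14 and Gab1 among 12 receptor adaptors and proximal brakes, Inppl1 among 27 PI3K, AKT and mTOR core genes, and Trim63, Pik3ip1 and Txnip among 12 FOXO-linked transcripts. In TPM with the block 3 of the 6 were called (Grb14, Trim63 and Pik3ip1), without replicate 2 only Grb14, and without replicate 3 none. The blocked fit also called none of the 65 when the filter on low values or the intensity trend was left out (limma adjusted p of Grb14, 0.0501 and 0.0573). By point estimate 26 genes were higher and 39 lower, with a median of -0.05 on the log2 scale.

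Grb14, an adaptor that binds the activated insulin receptor and inhibits it, was at 6.07, 11.7 and 8.27 FPKM in AdGFP and at 1.79, 4.59 and 2.48 FPKM in AdCre. Every AdCre value was below every control. The log2 difference was -1.58, with an SE of 0.37 (limma adjusted p = 0.263) without the block and 0.12 (adjusted p = 0.0093) with it. Gab1, a docking protein that brings PI3K and SHP2 to receptors, averaged 15.0 ± 1.78 FPKM in AdGFP and 10.5 ± 1.59 FPKM in AdCre (log2 difference -0.51, limma adjusted p = 0.341, and 0.0485 with the block). Inppl1, which encodes the lipid phosphatase SHIP2, averaged 63.7 ± 1.76 and 45.9 ± 4.25 FPKM (-0.47, adjusted p = 0.287, and 0.0301 with the block), and 20.3% of its exon bases lie opposite Gm10602. Both had AdCre ranges below the AdGFP ranges.

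The FOXO factors are held out of the nucleus by AKT, and the FOXO-linked list holds transcripts known to be induced by them. Of its 12 genes, 5 were higher and 7 lower in AdCre by point estimate, and only the 3 below passed with the block. Trim63, a muscle ubiquitin ligase, was at 41.0, 34.0 and 24.6 FPKM in AdGFP and at 27.5, 20.9 and 14.4 FPKM in AdCre, with overlapping groups (log2 difference -0.68, limma adjusted p = 0.480, and 0.0169 with the block, with the difference at -0.44 without AdCre 3). Pik3ip1, an inhibitor of PI3K at the membrane, averaged 6.70 ± 1.43 and 4.10 ± 0.682 FPKM (adjusted p = 0.340, and 0.0235 with the block). Txnip, which restrains glucose uptake and binds thioredoxin, averaged 138 ± 11.5 and 92.9 ± 20.0 FPKM (-0.59, adjusted p = 0.346, and 0.0489 with the block). Pik3ip1 and Txnip were lower in every AdCre sample than in any control. The cardiomyocyte marker sums moved in the same direction as these 6 genes, at 8929, 6909 and 5456 FPKM in AdGFP and 3466, 4852 and 2906 FPKM in AdCre, and their part in the 6 results was not tested.

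In the 3 remaining groups of the pathway 0 genes passed either fit, and the gene with the smallest p of each in the fit without the block is given. Htra1, a serine protease that cuts IGF binding proteins, was at 280, 308 and 252 FPKM in AdGFP and at 225, 243 and 161 FPKM in AdCre, with no overlap (log2 difference -0.44, limma adjusted p = 0.516, and 0.0577 with the block). Igf2bp3, an RNA-binding protein named for its binding to Igf2 transcripts, was at 2.86, 3.28 and 3.61 FPKM in AdGFP and at 4.27, 4.01 and 4.51 FPKM in AdCre. All 3 AdCre values were above the controls (0.39, limma adjusted p = 0.422, and 0.103 with the block), and 18.7% of its exon bases lie opposite Malsu1. In the blocked fit the smallest p of that group was that of Airn, the noncoding antisense transcript of Igf2r, at 3.62, 4.55 and 4.27 FPKM in AdGFP and 2.08, 4.005 and 2.34 FPKM in AdCre (-0.60, limma adjusted p = 0.495, and 0.088 with the block). Igfbpl1, a binding protein-like gene, was at 0.735, 0.413 and 0.374 FPKM in AdGFP and at 1.26, 0.596 and 0.677 FPKM in AdCre, with overlapping groups (0.62, limma adjusted p = 0.680, and 0.216 with the block). Insr, the insulin receptor, was at 4.88, 5.96 and 6.22 FPKM in AdGFP and 3.95, 6.10 and 4.49 FPKM in AdCre (-0.24, adjusted p = 0.757), and Ins2, which lies 11.84 kb from Igf2, was listed at 0.

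**Figure D5:**
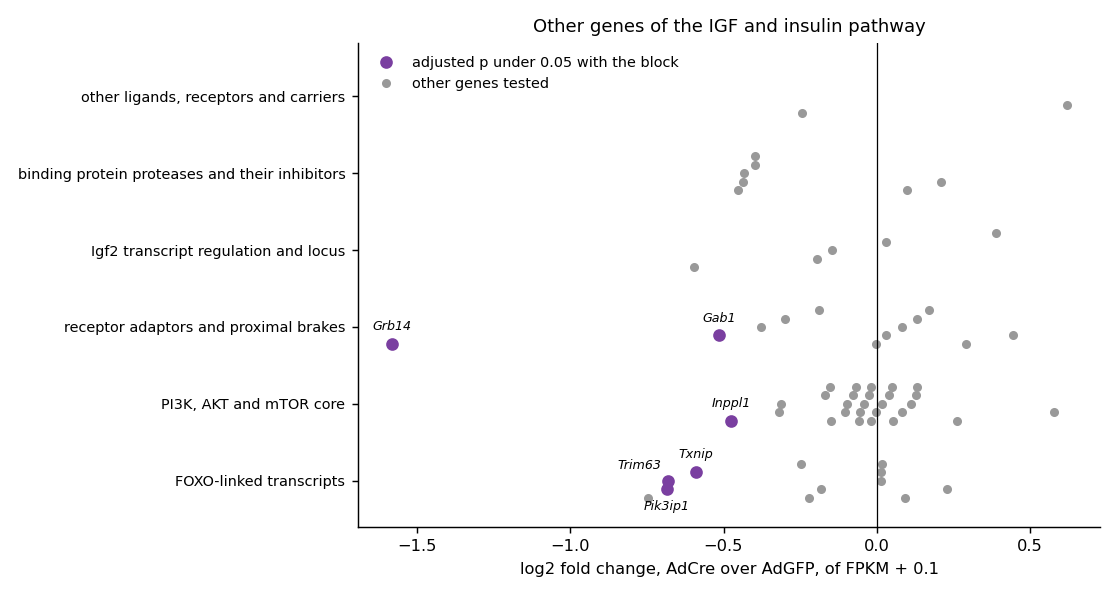
Log2 fold change of FPKM + 0.1, AdCre over AdGFP (x axis), for the 65 other pathway genes tested, by group (y axis, points offset only to separate them), with the 6 genes at an adjusted p under 0.05 in the blocked limma fit in purple and named. All 6 lie left of 0, Grb14 farthest at -1.58.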

How the data were processed

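Poly-A RNA libraries of 3 AdGFP and 3 AdCre cultures were analysed. The authors deposited FPKM values for 54532 genes; their processing notes name fastp, STAR 2.5, HTSeq 0.6.1 and mm10, without roles, and the annotation, strand setting and differential test are not given in the sources used here. Identifiers were matched to GENCODE M21 (54495 matched, 37 did not). Of 28433 genes with a value, 96.799% gave whole reads in every sample (tolerance 0.02 reads), from which totals of 25.3 to 32.4 M reads were recovered; 1 FPKM in a 2 kb transcript was 49.3 to 64.1 reads, and member genes had 258 to 31327 reads a sample. The test covered genes whose mean reached 0.5 FPKM, as log2(FPKM + 0.1) in limma 3.58.1 (R 4.3.3) with an intensity trend. This scale understates the change of low genes. The fit was tested on simulated data. The planted differences were larger than that of any member, so this test does not show power at their size. Nothing states that samples are separate litters, so p-values measure the spread between these samples.

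Deviations from the group means correlated at 0.568, 0.268 and 0.506 between samples of equal number and at -0.497 to 0.036 otherwise, and the numbers were therefore treated as pairs, which rests on the measured values and on no label. Permutation tests were exact and two-sided. Named were all 10 members and, of other pathway genes, at most 5 per group called in either fit by smallest p, or the 1 with the smallest p without the block; H19, Insr, Ins2, Airn, the markers named and the genes overlapping or neighbouring others were added after their values were seen. Genes of similar pattern were to be named only for members without overlap between groups, and there were 0. Members, lists and tests were chosen with earlier results of these data known. Alternatives covered the block, scaling, filter, pseudocount, trend, voom on the recovered reads and leaving out samples.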

Additional observations from a re-analysis of the deposited data

How the results depend on the processing

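With the replicate number as a block, calls over all genes went from 1 to 848 and pathway calls from 0 to 6, and member calls stayed at 0. Marker calls went from 0 to 9 of 14 for cardiomyocytes, 4 of 12 for fibroblasts, 4 of 12 for endothelial cells, 3 of 8 for epicardial or mesothelial cells, 2 of 9 for macrophages and 0 of 10 for mural cells. Without the block, calls over all genes were 3 with a pseudocount of 1, 4 without the intensity trend, 0 with voom, 0 without the filter on low values, and 0 to 2 leaving out a sample. With the block they were 875 in TPM, 1741 with voom, 17 without the filter, 0 without the trend, 704 without the authors' scaling factors (chosen after seeing the data), and 811, 152 and 1 without replicates 1, 2 and 3. Member calls with the block were 1 in TPM and 1 with voom (Igf1 in both), and 0 to 1 leaving out a number (Igfbp6 without replicate 1). Pathway calls with the block were 3 in TPM, 10 with voom, 3 without the authors' scaling factors, 0 without the filter, 0 without the trend, and 5, 1 and 0 without replicates 1, 2 and 3. The causes were not tested. Every member had at least 258 reads in each sample.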
